A study of Mus musculus with 12 samples.

Results

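The 8 genes Lsm1 to Lsm8 encode the LSm ring proteins, and they were read from the rows of that name in a table of 24062 genes counted in mouse oocytes. The family was taken up because one member, Lsm7, was chosen for its higher counts in the high-fat group. The diet values of Lsm7 are therefore given as a description with no test. The other 7 members were taken by name, as its ring partners, and were not picked by their values. All 8 genes had reads in every library, and all 8 passed the filter on low counts. Lsm4 passed it only through its HFD libraries.

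The libraries came from female mice given a modified high-fat, high-calorie feed (HFD) or a control feed (CD) for 9 weeks. All females then received the control feed while they were with vasectomized males, and oocytes were taken on day 0.5 after a plug. The labels give no strain and no age, and they list the control feed under the same product code that the high-fat feed modifies. Each library held 4 pooled oocytes, with 6 libraries per diet. Which female gave which pool is not stated, so the spread between libraries may be partly technical. The tests below take the pools as independent, which cannot be checked if pools shared females.

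LSm proteins share the fold of the spliceosomal Sm proteins and assemble into closed rings that hold the 3′ ends of RNA. Lsm2 to Lsm7 are common to both rings. With Lsm1 they form the cytoplasmic ring, which binds shortened mRNA together with Pat1 proteins and promotes removal of the cap. With Lsm8 they form the nuclear ring, which binds the uridine-rich end of U6, a small RNA of the spliceosome. A grown oocyte makes little new RNA, stores its mRNA and then clears much of it during maturation and early development.

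The first transcribed bases of the genes are shown because 3 of the 6 members that have a promoter entry share a motif there. The entries are RefSeq windows on GRCm38.p6 (mm10) from 250 bases before to 50 bases after the start, and Lsm2, Lsm3, Lsm5, Lsm6, Lsm7 and Lsm8 had one. Capitals mark ATGGCGG, the core of the motif of the transcription factor YY1. In all 3 genes its first letters are also the annotated start codon, so the same letters serve the coding sequence.
Lsm3: gggcgcagcgtttgaaacATGGCGGacgac
Lsm5: gccacttccggcgtggccATGGCGGctaac
Lsm7: gcgacgtgaggcgacaagATGGCGGtgagc
The stretches lie at chr6:91516040-91516069 on the plus strand, chr6:56704657-56704686 on the minus strand and chr10:80855175-80855204 on the minus strand. The motif begins 24, 32 and 24 bases from the start of transcription, counted from 1. Searched on both strands, ATGGCGG was in 4.05% of 32851 windows over all genes, and in 1.36% it lay in the transcribed part in the forward direction. Of the other motifs searched on both strands, CCGGAAG was in Lsm5 (8.86% of all windows), GCATGCGC in Lsm2 and Lsm8 (2.71%), CCAAT in Lsm2, Lsm5 and Lsm6 (37.4%), and TATAAA in none of the 6 (13.6%). These matches describe the letters in a window and are not evidence of binding.

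Gene counts summed to between 8409491 and 13793598 per library. All 10 oocyte markers listed for this work were detected, and their summed level was 9495 to 29089 CPM (counts scaled to library size with TMM factors). Of 16 cumulus and granulosa markers 3 had no read in any library and 2 passed the filter. Their summed level was 108 to 1808 CPM in HFD and 123 to 1349 CPM in CD, and without Serpine2 it was 18.8 to 44.0 and 29.6 to 83.9 CPM. In 4 libraries, HFD replicates 1 and 2 and CD replicates 2 and 4, the oocyte growth factor Gdf9 stood at 543 to 616 CPM, against 4601 to 9642 CPM in the other 8. Mos, the kinase that holds the egg in metaphase, stood at 3.84 to 9.40 CPM in the same 4, against 146 to 1702 CPM. HFD replicate 3 stood apart in another way. It had the most genes detected, 14755 against 12229 to 13052, and 3942 CPM of the zona protein gene Zp3, against 11.0 to 195 CPM in the others. Counts were all even in HFD replicates 1, 2, 4 and 6, and in none of the CD libraries. The cause is not stated, and CPM is unaffected only if each count was exactly doubled. Whatever made these counts even cannot be fully told apart from diet. Results are given with and without the 5 libraries that stand apart where they matter.

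Lsm7, a core subunit of both rings (chromosome 10, 80852821 to 80855209, minus strand), had its lowest CD library at 25.0 CPM, the median at 32.7 and the highest at 55.8. In HFD the lowest stood at 39.8 CPM, the median at 139 and the highest at 241. The lowest HFD library was replicate 2, the only one inside the CD range, and the highest was replicate 1, so the groups overlapped through a single library. The means were 136 ± 65.0 CPM in HFD and 35.4 ± 12.1 CPM in CD (SD, n = 6 each), a log2 fold change of 1.95 ± 0.38 (SE), or 3.85-fold. This is the contrast that chose the gene. Leaving out any library moved the log2 fold change only between 1.71 and 2.14.

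**Figure D1:**
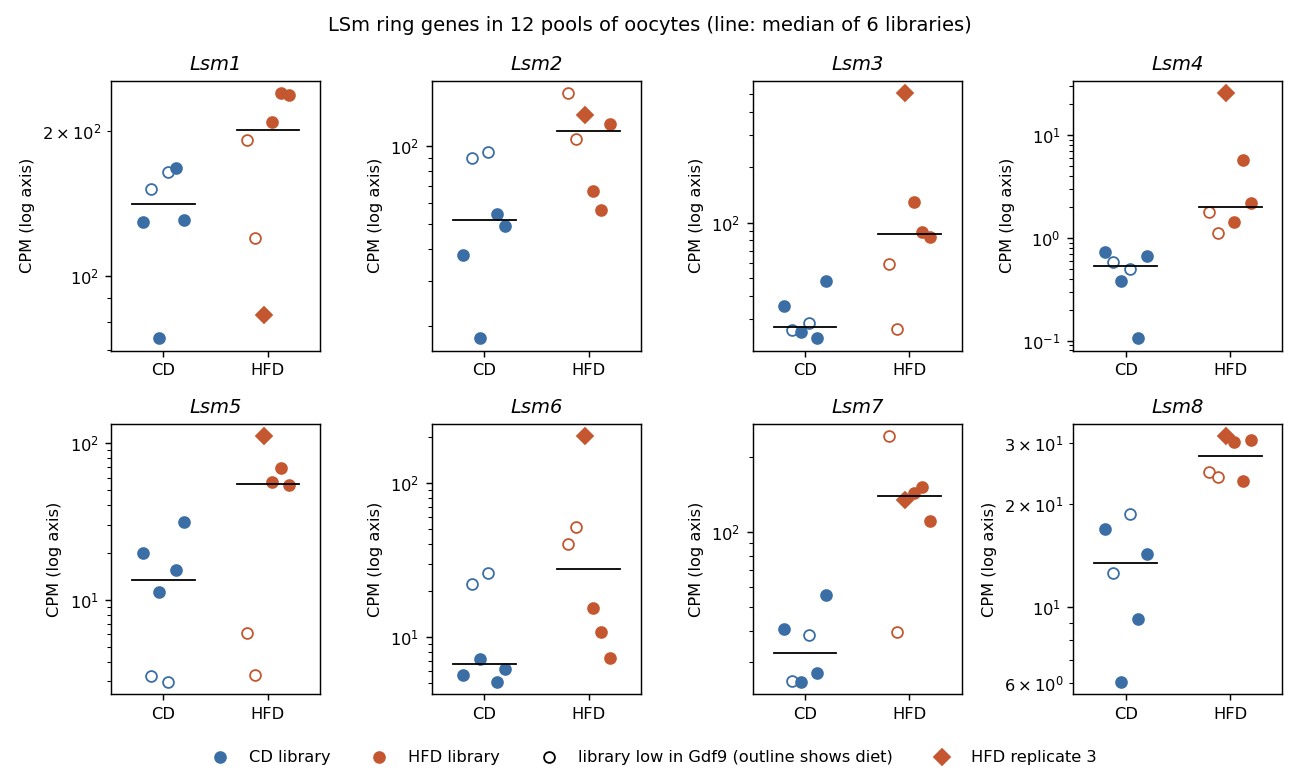
Level of each LSm ring gene in the 12 libraries, in CPM on a log axis, with CD and HFD side by side and a line at the median of 6. Open circles are the 4 libraries low in Gdf9 and the diamond is HFD replicate 3. Lsm4 and Lsm8 show no overlap between diets, and the open circles are the lowest of each diet for Lsm5.

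Across the diets, all 7 members other than Lsm7 stood above 0 in log2 fold change, HFD minus CD, from 0.40 (Lsm1) to 3.64 (Lsm4). With the chosen Lsm7 included, the median of the 8 was 1.89, given as a description. Over all 9935 genes tested 51.8% stood above 0 and the median was 0.04. No member passed edgeR's quasi-likelihood test after Benjamini-Hochberg adjustment over all genes, as no gene of the table did (0%). Among the 7 members other than Lsm7, 6 had an unadjusted edgeR p under 0.05 and were higher in HFD, against 13.4% of all genes tested. DESeq2, run as an alternative, called 4 of those 7 higher (Lsm3, Lsm4, Lsm6 and Lsm8), against 4.96% of the genes it tested. It called none lower, against 2.46%. For Lsm3, Lsm4 and Lsm6, HFD replicate 3 lay far above the other HFD libraries, and no DESeq2 fit without it is given. Every HFD library lay above every CD library for Lsm8, against 1.17% of all genes. This also held for Lsm4, which passed the filter on low counts only through its HFD libraries. Its lack of overlap was therefore largely set by the filter, and its place in these counts is no support.

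Most of these transcripts are short, and the diet difference across all genes moved with transcript length. Lsm2, Lsm3, Lsm4, Lsm5, Lsm7 and Lsm8 fell in the shortest of 5 length classes (76 to 1633 nt), where the median log2 fold change was 0.86. In that class 88% of 1973 genes stood above 0, 38.7% were higher at an unadjusted p under 0.05, and 3.90% had no overlap between diets with HFD above. Within the class, 53.1% of genes had a lower log2 fold change than Lsm2, 61.0% than Lsm8, 82.2% than Lsm5, 84.1% than Lsm7, 88.4% than Lsm3 and 97.2% than Lsm4. The rank of Lsm4 is no support, as it passed the filter only through HFD. Lsm6 fell in the second class (median 0.13) and Lsm1 in the third (median −0.16). With each library's trend on length removed, the median of the 8 members, Lsm7 included, was 0.41 and no member passed. This fit was limma on log2 CPM with a prior count of 2, which damps low genes such as Lsm4. It averages log2 values, unlike edgeR's fold changes, so the drop mixes a change of measure with the correction. Limma-voom with quality weights, without the correction, gave a median of 1.24 for the 8. It weights libraries, which the corrected fit does not, so these medians differ in more than the correction. The corrected values were 0.40 for Lsm7, 0.083 for Lsm8, 0.057 for Lsm5 and −0.023 for Lsm2, and 1.44 for Lsm4, 1.43 for Lsm6, 0.46 for Lsm3 and 0.41 for Lsm1. What part length played in the result was not tested beyond this correction.

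**Figure D2:**
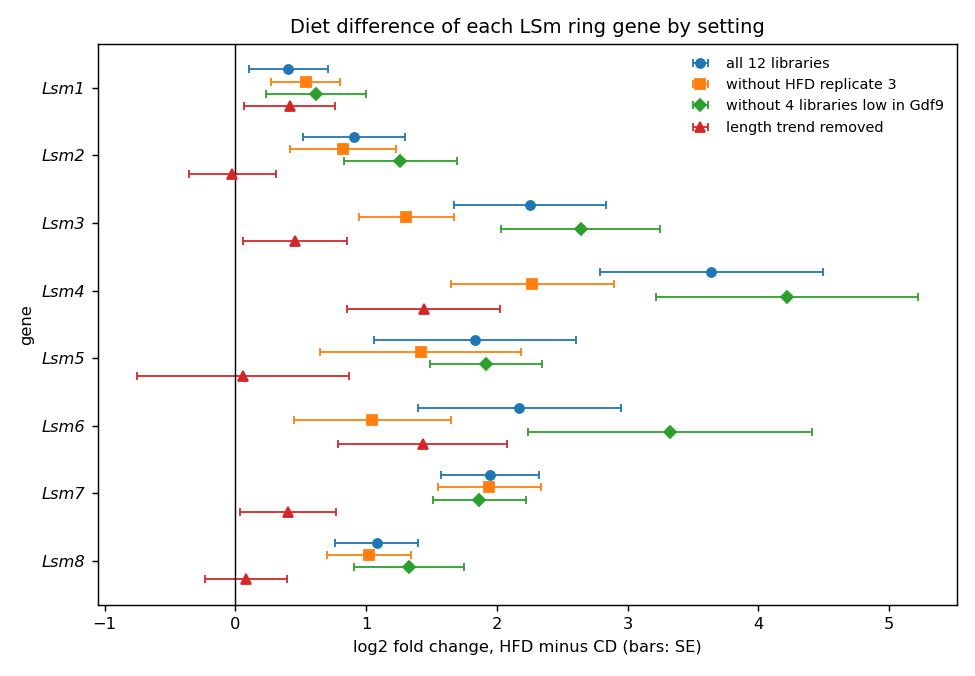
Log2 fold change, HFD minus CD, of each LSm ring gene with its SE, from all 12 libraries, without HFD replicate 3, without the 4 libraries low in Gdf9, and with the trend on transcript length removed. Lsm7 and Lsm8 keep values near 1.95 and 1.08 without HFD replicate 3. All members but Lsm1 sit lower with the length trend removed. That fit averages log2 values in limma while the others are from edgeR, so it differs in measure as well.

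Lsm3 (chromosome 6, 91515928 to 91522625, plus strand), another subunit of both rings, had 23.5, 27.2 and 48.3 CPM as its lowest, median and highest CD library. In HFD these were 26.3, 86.5 and 503 CPM. The highest HFD value was replicate 3, and replicate 2 was the only HFD library inside the CD range. The log2 fold change was 2.25 ± 0.58 (edgeR, adjusted p = 0.0913), and without HFD replicate 3 it was 1.31 ± 0.36 (edgeR, adjusted p = 0.135). A sense-strand transcript model, AC161456.1, shares 174 exonic bases with Lsm3, so some of its reads may belong there.

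Lsm4 (chromosome 8, 70673248 to 70678752, plus strand), whose protein carries a long arginine- and glycine-rich tail, was barely detected in CD, at 0.10, 0.54 and 0.72 CPM, or 1 to 8 reads per library. In HFD it stood at 1.10, 1.99 and 25.5 CPM, or 12 to 256 reads. HFD replicates 1, 2, 4 and 6, whose counts are all even, held 12 to 22 reads. With those libraries halved, Lsm4 failed the filter on low counts. Every HFD library lay above every CD library, but Lsm4 passed the filter only through HFD, so this was largely set by the filter. The log2 fold change was 3.64 ± 0.85 (edgeR, adjusted p = 0.0913), and 2.27 ± 0.63 without HFD replicate 3 (edgeR, adjusted p = 0.135). With so few reads in CD, the size of the fold is uncertain.

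Lsm2 (chromosome 17, 34981862 to 34985891, plus strand) stood at 18.0, 51.7 and 94.7 CPM in CD and at 56.5, 114 and 160 CPM in HFD. The 2 highest CD libraries were replicates 2 and 4, both low in Gdf9, at 89.7 and 94.7 CPM, and the other CD libraries did not exceed 54.7 CPM. HFD replicates 4 and 5, at 67.1 and 56.5 CPM, lay inside the CD range. The log2 fold change was 0.91 ± 0.39 (edgeR, adjusted p = 0.193), and 1.26 ± 0.43 without the 4 libraries low in Gdf9 (edgeR, adjusted p = 0.133).

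Lsm5 (chromosome 6, 56701063 to 56704710, minus strand) and Lsm6 (chromosome 8, 78804865 to 78821140, minus strand), both subunits of the shared core, differed widely between pools of one diet. Lsm5 ran from 2.99 to 31.2 CPM in CD, with a median of 13.3, and from 3.31 to 110 CPM in HFD, with a median of 55.2. Its 4 lowest values of the 12 were the 4 libraries low in Gdf9, at 2.99 to 6.16 CPM whatever the diet. In the other libraries Lsm5 stood at 11.2 to 31.2 CPM in CD and 53.8 to 110 CPM in HFD, with no overlap.

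Lsm6 went the other way. It ran from 5.13 to 26.2 CPM in CD, with a median of 6.68, and from 7.28 to 201 CPM in HFD, with a median of 27.7. The 4 libraries low in Gdf9 stood at 22.0 to 51.6 CPM, above the 5.13 to 15.4 CPM of 7 of the other 8, while HFD replicate 3 held 201 CPM. Thus the pools low in Gdf9 were low in Lsm5 and high in Lsm6, although both proteins belong to each ring. How many of all genes set these 4 libraries apart likewise was not counted, for these or for Lsm14b and Gemin7 below. The split is therefore not shown to be particular to these genes. The same 4 libraries had 108 to 143 CPM of the cumulus and granulosa markers, against 326 to 1808 CPM in the other 8. That gap lay in Serpine2, since without it the ranges overlapped, at 18.8 to 45.9 and 23.3 to 83.9 CPM. Its part in the values of Lsm5 and Lsm6 was not tested.

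**Figure D3:**
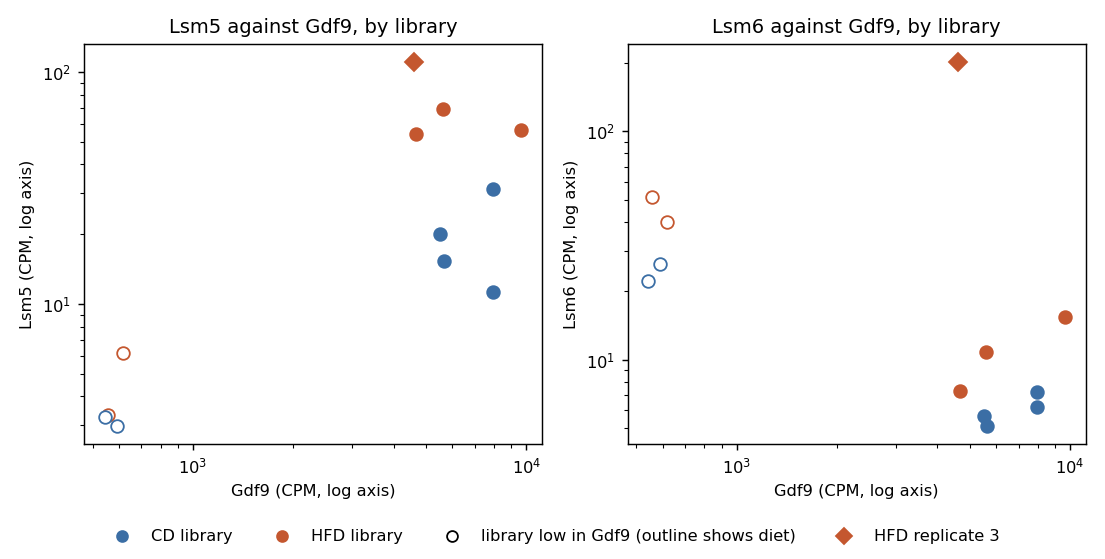
Lsm5 (left) and Lsm6 (right) against Gdf9 in each of the 12 libraries, all in CPM on log axes. The 4 libraries at 543 to 616 CPM of Gdf9 are the lowest for Lsm5, at 2.99 to 6.16 CPM, and hold 22.0 to 51.6 CPM of Lsm6, where 7 of the other 8 stay at or below 15.4 CPM.

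Over the 12 libraries the diet difference of Lsm5 was 1.83 ± 0.77 on the log2 scale (adjusted p = 0.188 in edgeR). For Lsm6 it was 2.17 ± 0.78 (adjusted p = 0.134 in edgeR), and 1.05 ± 0.60 without HFD replicate 3 (adjusted p = 0.397 in edgeR). Without the 4 libraries low in Gdf9 the value of Lsm5 was 1.92 ± 0.43 (edgeR, adjusted p = 0.128), with its SE smaller than with all libraries. That of Lsm6 was 3.32 ± 1.08 in the same 8 libraries (edgeR, adjusted p = 0.134), and 0.89 ± 0.44 when HFD replicate 3 was left out as well (edgeR, adjusted p = 0.248). In the 8 libraries rich in Gdf9, HFD lay above CD with no overlap for 6 of the 7 members other than Lsm7, all but Lsm1, against 7.34% of 9914 genes and 22.8% of those in the shortest length class. The margins were narrow for Lsm2, at 56.5 against 54.7 CPM, and for Lsm6, at 7.28 against 7.18 CPM. Lsm4 passed the filter only through HFD here too, so its lack of overlap was largely set by the filter. These 8 libraries were chosen after the data were seen.

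Lsm1 (chromosome 8, 25785288 to 25803975, plus strand), the subunit particular to the cytoplasmic ring, had the smallest log2 fold change of the 8 before the correction for length, though not after it. It stood at 74.0, 141 and 168 CPM in CD and at 82.7, 201 and 240 CPM in HFD. HFD replicates 1, 4, 5 and 6 lay above all CD libraries, and replicates 2 and 3 lay inside the CD range. HFD replicate 3, the highest library for Lsm3, Lsm4, Lsm5, Lsm6 and Lsm8, was the lowest HFD library for Lsm1. The log2 fold change was 0.40 ± 0.30 (edgeR, adjusted p = 0.449).

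Lsm8 (chromosome 6, 18848579 to 18855751, plus strand), the subunit particular to the nuclear ring, was the least variable member in HFD. It stood at 6.05, 13.4 and 18.7 CPM in CD and at 23.3, 27.5 and 31.4 CPM in HFD, with no overlap. Its coefficient of variation was 13.7% in HFD and 36.5% in CD. The 500 tested genes nearest to it in level had a median of 47.5% in HFD and 47.7% in CD. The log2 fold change was 1.08 ± 0.32 (edgeR, adjusted p = 0.0968), between 0.91 and 1.21 with any library left out.

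The ratio of Lsm8 to Lsm1 was compared to ask whether the nuclear and the cytoplasmic subunit moved apart with diet. The log2 difference, Lsm8 minus Lsm1, averaged −2.62 ± 0.69 in HFD and −3.42 ± 0.44 in CD (SD, n = 6 each). The diets differed by 0.80 (two-sided exact permutation test over 924 assignments, p = 0.0303; a single comparison, with 0.00216 the smallest p possible). CD libraries ran from −4.16 to −2.92 and HFD libraries from −3.35 to −1.39, so they overlapped. HFD replicate 3 was the highest, and without it the difference was 0.55 (exact permutation test, p = 0.0606). It also missed the threshold without CD replicates 2, 3 or 5 in turn, at 0.77, 0.77 and 0.65 (exact permutation test, p = 0.0628, 0.0628 and 0.0736). Without the 4 libraries low in Gdf9 it was 0.84 (exact permutation test, p = 0.171). Lsm1 has a longer transcript than Lsm8, and with each library's trend on length removed the difference turned to −0.33 (exact permutation test, p = 0.301). The direction of the ratio with diet therefore depends on how transcript length is treated.

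Levels between the genes were compared per kb of transcript, using the median length of each gene's principal transcripts in GENCODE M21. In CD, Lsm7 stood highest at 75.6 ± 25.9 CPM per kb, then Lsm2 at 68.1 ± 35.5, Lsm1 at 51.2 ± 13.0 and Lsm3 at 45.8 ± 13.7 (SD, n = 6). These 4 were not separated from their neighbours, since each pair kept its order in 3 or 4 of 6 CD libraries. Lsm5 followed at 28.4 ± 21.7, Lsm8 at 16.0 ± 5.86, Lsm6 at 5.72 ± 4.48 and Lsm4 at 0.53 ± 0.24 CPM per kb. Lsm3 was above Lsm5, Lsm8 above Lsm6 and Lsm6 above Lsm4 in 6 of 6 CD libraries, while Lsm5 was above Lsm8 in 4. In HFD, Lsm7 was again highest at 291 ± 139 CPM per kb, with Lsm3 next at 218 ± 260, a mean that rests on replicate 3. Proteins of 1 ring are present in equal number, whereas the mRNA levels of ring members differed up to 142-fold in CD, between Lsm7 and Lsm4. The order depends on the transcript assumed, since coding models of Lsm6 run from 541 to 3792 nt and those of Lsm7 from 468 to 1129 nt.

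**Figure D4:**
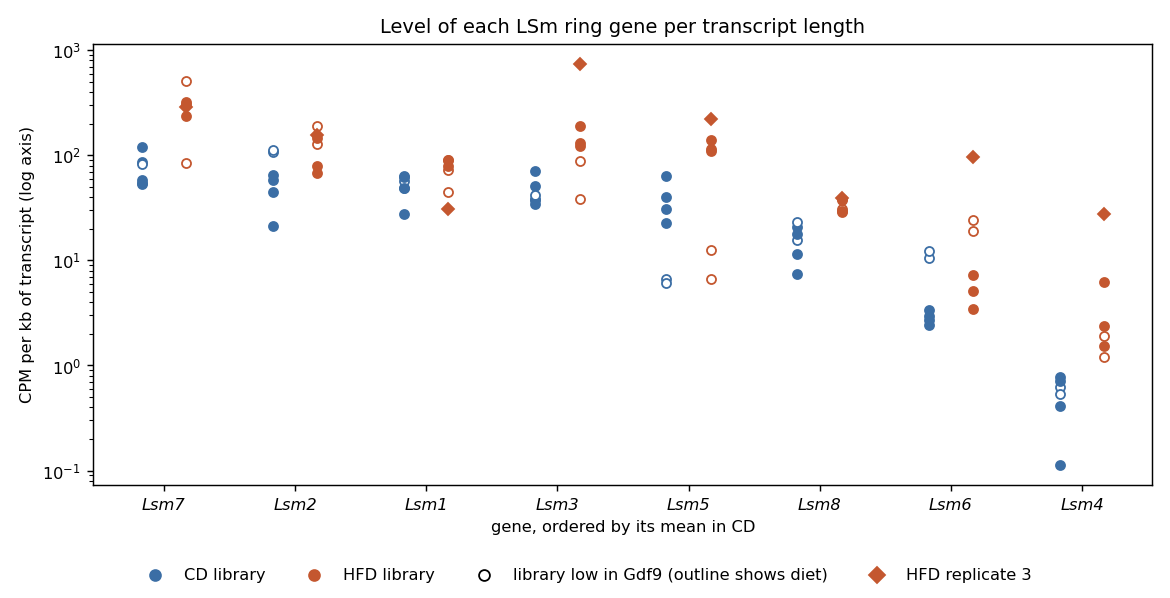
Level of each LSm ring gene per kb of transcript (median length of its principal transcripts), on a log axis, in CD (left of each pair) and HFD (right), ordered by the CD mean. Lsm7, Lsm2, Lsm1 and Lsm3 overlap at the top in CD, and Lsm4 lies lowest, at 0.53 CPM per kb on average in CD.

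Counts of 3 members are uncertain because other gene models carry nearly the same sequence. Lsm7 has a processed pseudogene, Gm10146, identical to it over 309 nt of a 468-nt transcript, and a second, Gm13182, at 98.7% identity over 312 nt. Lsm5 has Gm10074 (99.2% over 249 nt) and Gm7846 (97.8% over 279 nt). Lsm6 has 3 of them, at 96.2% to 98.4% identity over 235 to 243 nt. Reads from such stretches can align to more than 1 place, and reads of that kind were 26.8% to 35.7% of all tallied reads in HFD and 18.6% to 26.5% in CD. Their part in the values of Lsm5, Lsm6 and Lsm7 was not tested.

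The genes whose pattern over the 12 libraries was nearest that of Lsm7 were Myl6, Nop10, Myeov2, Minos1 and Rplp2. Likeness was the root-mean-square difference of log2 CPM after each gene's own mean was removed. It was 0.36 for Myl6, a myosin light chain, 0.37 for Nop10, a protein of the pseudouridylation complex, and 0.38 for Myeov2, also named Cops9. It was 0.44 for Minos1, a protein of the mitochondrial inner membrane, and 0.45 for Rplp2, a ribosomal stalk protein. The median over 9934 genes was 1.39. Among the ring partners of Lsm7 the nearest was Lsm8, at 0.71 and rank 140, and Lsm5 and Lsm6 stood at 1.46 and 1.53, farther than the median gene. The diet difference that chose Lsm7 is part of this measure.

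Of the partner genes, the Sm ring, the sister ring of the other spliceosomal small RNAs, lay closest to the LSm genes in its diet values. All 7 of its tested members of 8 stood above 0, with a median log2 fold change of 1.16, and 6 were higher at an unadjusted edgeR p under 0.05 (13.4% of all genes). None passed edgeR's adjustment, and DESeq2 called 5 higher (4.96% of all genes it tested). Snrpd1, which forms a pair with Snrpd2 in the ring, had its lowest CD library at 244 CPM and its highest at 565 CPM. In HFD it stood at 705 to 1325 CPM, with no overlap, and the log2 fold change was 1.16 ± 0.26 (adjusted p = 0.0913 in edgeR). Snrpd3, Snrpe, Snrpf and Snrpg had log2 fold changes of 0.98 ± 0.30, 1.14 ± 0.31, 1.18 ± 0.32 and 1.37 ± 0.37. Snrpb, at 2.23 CPM in CD, had 1.02 ± 0.52. Snrpd2 had 4.97 ± 1.42, which rested on HFD replicate 3, and 1.29 without it. That replicate stood at 146 CPM, against at most 3.78 CPM in the other HFD libraries. In CD, Snrpd2 had 2 to 28 reads per library, and it passed the filter on low counts largely through HFD. These transcripts are also short, at a median of 1055 nt, and with the length trend removed the list median was 0.14.

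The proteins that act on mRNA beside the cytoplasmic ring had other values. Of 10 tested genes of decapping and 5′ decay 3 stood above 0 and 7 below, with a median log2 fold change of −0.39. At an unadjusted edgeR p under 0.05, 0 were higher and 2 lower (8.89% of all genes were lower), and none passed the adjustment. The 2 lower genes, named after their values were seen, were Dcp1a and Eif4enif1. Dcp1a, a decapping cofactor, had −1.17 ± 0.47, and Eif4enif1, a repressor of cap-bound mRNA, −0.65 ± 0.29. Dcp1a varied widely in CD, at 830 ± 862 CPM (mean ± SD), against 370 ± 118 CPM in HFD. DESeq2 gave no adjusted p for it. Its fall may therefore rest on few CD libraries, which was not tested. Dcp2, the decapping enzyme, had 0.094 ± 0.38 and Patl2, the Pat1 protein of oocytes, 0.13 ± 0.58. Xrn1, the 5′ exonuclease, had −0.33 ± 0.33, Edc4, a scaffold of the decapping complex, −0.41 ± 0.32, and Ddx6, a helicase of mRNA granules, −0.76 ± 0.42. Their transcripts are long, at a median of 4430.5 nt, and the corrected median was −0.20.

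Genes of U6 and of the tri-snRNP, the particle that carries U6 into the spliceosome, were evenly divided. Of 20 tested, 10 stood above 0 and 10 below, with a median of 0.12. With the length trend removed the list median was −0.019. At an unadjusted edgeR p under 0.05, 5 were higher and 0 lower, against 13.4% and 8.89% of all genes, and DESeq2 called 2 higher, against 4.96%. The 5, named after their values were seen, were Larp7 at 1.0 ± 0.31, Ssb at 0.78 ± 0.25, Ppih at 0.90 ± 0.25, Nhp2l1 at 1.05 ± 0.32 and Txnl4a at 1.92 ± 0.76. Ssb is the La protein, which holds the end of newly made U6 before the LSm ring does, and Larp7 is a relative of it. Ppih and Nhp2l1, both of the tri-snRNP, were those called by DESeq2, and Ppih had no overlap between diets. The value of Txnl4a was 0.89 without HFD replicate 3. Sart3, Usb1 and Tut1 stood below 0, by less than 2 SE each. Sart3, which helps U6 join U4, had −0.41 ± 0.50, Usb1, which trims the end of U6, −0.56 ± 0.33, and Tut1, which adds uridines to it, −0.37 ± 0.43. Prpf3 and Prpf4, of the same particle, had −0.25 ± 0.43 and −0.31 ± 0.83.

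**Figure D5:**
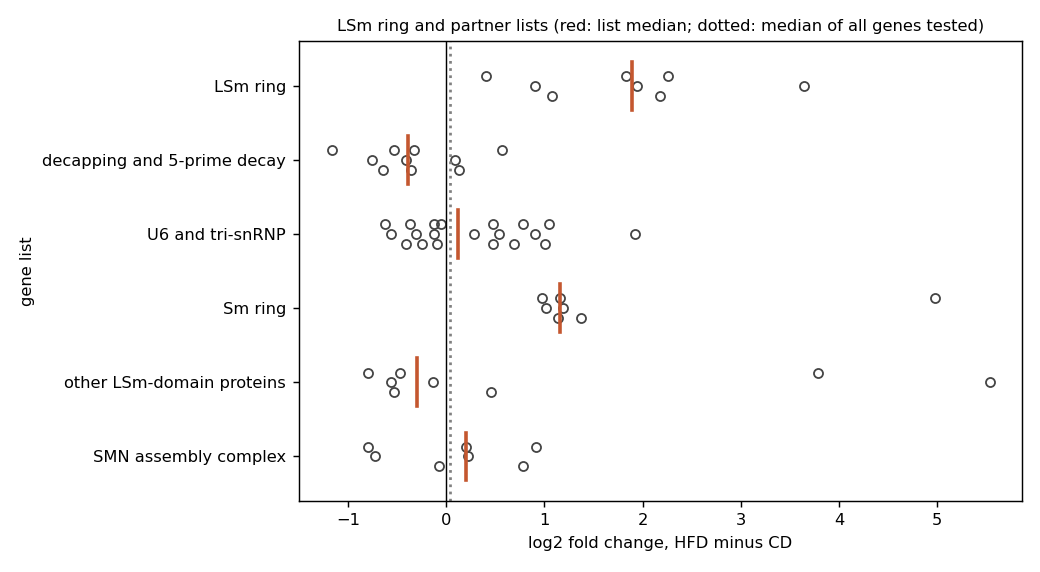
Log2 fold change, HFD minus CD, of each tested gene in the LSm ring and in 5 partner lists, with the list median as a red bar and the median of all genes tested, 0.04, as a dotted line. The LSm ring and the Sm ring lie entirely above 0, with medians of 1.89 and 1.16. The LSm ring includes Lsm7, which was chosen for its rise in HFD.

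Other proteins with an LSm domain were divided in direction. Of 8 tested, 3 stood above 0 and 5 below, with a median of −0.30. With the length trend removed the list median was 0.078. At an unadjusted edgeR p under 0.05, 2 were higher and 2 lower, against 13.4% and 8.89% of all genes. Lsm14a, an mRNA storage protein and the most abundant of them at 701 ± 112 CPM in CD, stood at 476 ± 135 CPM in HFD, or −0.56 ± 0.26 on the log2 scale (adjusted p = 0.214 in edgeR). Lsm14b, its relative known in oocytes, had −0.14 ± 0.66. It ran from 17.2 to 53.7 CPM in the 4 libraries low in Gdf9 and from 54.3 to 337 CPM in the other 8, so these 4 were its lowest, as for Lsm5, by a narrow margin. Lsm10 and Lsm11, which replace 2 Sm proteins in the ring of the histone mRNA-processing U7 particle, had 3.79 ± 1.04 and −0.53 ± 0.37. For Lsm10 that value rested on HFD replicate 3, at 348 CPM against at most 16.1 CPM in the other HFD libraries, and was 1.16 without it. Lsm12 had 0.46 ± 0.37. The other gene that was higher was Naa38, a subunit of an acetyltransferase, at 5.53 ± 1.38 and at 2.16 without HFD replicate 3. Naa38 had 2 to 23 reads per CD library and passed the filter on low counts largely through HFD. The size of its fold is therefore uncertain. The other that was lower was Atxn2l, a relative of ataxin, at −0.79 ± 0.36. Both were named after their values were seen.

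The list of the SMN complex, which loads Sm rings onto RNA, was divided as well. It also held Clns1a, Prmt5 and Wdr77, which act in the assembly of Sm rings but are not subunits of that complex. Of the 12 genes listed 7 were tested, of which 4 stood above 0 and 3 below, with a median of 0.21. With the length trend removed the list median was −0.33. At an unadjusted edgeR p under 0.05, 0 were higher and 1 lower, near the 8.89% of all genes that were lower. The lower one, named after its values were seen, was Strap, at −0.80 ± 0.27. Smn1 had 0.21 ± 0.31. Gemin6 and Gemin7, which have an Sm-like fold, had 0.78 ± 0.51 and 0.92 ± 0.83. Gemin7 was high in the 4 libraries low in Gdf9, at 192 and 204 CPM in CD and 280 and 305 CPM in HFD, and otherwise at most 39.9 CPM except in HFD replicate 3, at 236 CPM. The same 5 libraries were the highest for Lsm6.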

How the data were processed

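The authors deposited raw read counts per gene symbol, not normalised. STAR, HTSeq 1.0.0, DESeq2 1.0.19 and the build mm10 are named, per the submitters' processing notes. Which annotation was used, and how reads were assigned, is not given in the sources used here. Per the labels' protocols, cDNA came from template switching and tagmentation, which does not mark strand. The counter's tallies of unassigned reads, 62.3% to 72.9% of all reads, were left out of library sizes and tests. Libraries of 1 diet differed by at least 27.7 chi-square units per degree of freedom, so none was a copy.

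HFD was compared with CD in edgeR 4.0.16 (R 4.3.3), with TMM scaling, the default filter on low counts, the robust quasi-likelihood test with diet as the only term, and Benjamini-Hochberg adjustment over 9935 genes at a threshold of 0.05. The SE is the fold change divided by the root of F. DESeq2 1.42.0, limma 3.58.1 and other settings were alternatives. The scripts were tested on simulated data. Coordinates and lengths came from GENCODE M21, matched for 23685 of 24062 symbols, 935 of them through older symbols. Pseudogenes were found with blastn, at 95% identity or more over 75 nt or more. The members and lists were chosen with earlier results of these data known. Named genes were the 8 members, the 5 nearest Lsm7, and partner genes picked by role. Gemin7 and Lsm14b were described by library after their values were seen. Reads carried no molecular identifiers, so counts are not independent molecules. The labels do not say whether replicate numbers pair the pools, so the main fit had no block.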

Additional observations from a re-analysis of the deposited data

Results flagged for a closer look

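In HFD replicate 3 the level lay far from the other 5 HFD libraries for 3 of the 8 members, by Dixon's test on the gap to the nearest library. Lsm3 stood at 503 CPM there, against 26.3 to 129 CPM in the others. Lsm4 stood at 25.5 CPM, against 1.10 to 5.73 CPM, and Lsm6 at 201 CPM, against 7.28 to 51.6 CPM. The test was run on 18 groups of 6 values (each member and the ratio of Lsm8 to Lsm1, in each diet), and chance flags about 1 in 20. No CD library was set apart in this way. The same library had the most genes detected, and the part this played in the 3 values was not tested.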

How the results depend on the processing

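No gene and no member was called by edgeR with DESeq2's size factors, total counts, no filter on low counts, the all-even libraries halved (Lsm4 then failed the filter), the replicate block, any library left out, or the 4 libraries low in Gdf9 left out, nor by limma with the length trend removed. At an unadjusted p under 0.05 the main comparison had 2215 genes. DESeq2 called 709 genes (474 higher, 235 lower) and 5 members (Lsm3, Lsm4, Lsm6, Lsm8 and Lsm7), and limma-voom with quality weights 35 genes and 1 member, Lsm7. Lsm7 was chosen by this contrast, so its place in these counts is no test of it, and limma-voom called no other member. Keeping just the 8 libraries that hold odd counts (HFD replicates 3 and 5 and all CD) gave 456 genes (454 higher) and 3 members, Lsm3, Lsm4 and the chosen Lsm7. Leaving out HFD replicate 3 and the 4 libraries low in Gdf9, chosen after seeing the data, gave 11 genes and 1 member, the chosen Lsm7, and no other. The cause of these differences was not tested, beyond the fewer libraries. The median log2 fold change of the 8 members, Lsm7 included, was 1.24 with limma-voom and 0.41 with the length trend removed. It lay between 1.18 (without HFD replicate 3) and 2.10 with each library left out. Of 183 values of single members, 172 kept direction and side of the threshold, 10 passed it, and that of Lsm2 turned to −0.023 with the length trend removed. The ratio of Lsm8 to Lsm1 differed by 0.55 to 0.94 with each library left out, and reversed to −0.33 with the length trend removed, an alternative added after seeing the data. It missed the threshold with odd counts only (1.05), without the 4 libraries low in Gdf9 (0.84), without these and HFD replicate 3 (0.43), and under the replicate block (0.80; exact sign-flip permutation test, p = 0.0625). The block called 0 genes. Deviations of same-numbered libraries correlated between −0.45 and 0.55, and 2 of 6 HFD libraries correlated best with their own number. Low reads limit Lsm4 most, with 1 to 8 per CD library.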
